A study of Mus musculus with 8 samples.

Results

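The collagen genes are the protein-coding mouse genes whose symbols follow the pattern Col, a type number, the letter a and a chain number. In the GENCODE M21 annotation of mm10 (GRCm38), 44 of 21938 protein-coding genes met this rule. Each gene was followed over a window holding its body and the 10 kb upstream, and peaks from different libraries sharing 1 bp or more were joined into merged regions. Of 69399 merged regions, 238 lay in collagen windows, and 4 of these lay in a pair of collagen windows. The chains were divided into 11 fibrillar chains, 10 basement-membrane chains and 23 other chains.

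Chromatin accessibility was profiled by ATAC-seq, in which the transposase Tn5 inserts adapters into open DNA, in cutaneous squamous cell carcinoma (SCC) cells. SCCs were raised with DMBA and TPA in FVB mice of genotype K14CreER FAKflox/flox, where Cre is driven from the keratin 14 promoter, and the labels give Ha-Ras as the driver gene. FAK, a tyrosine kinase at focal adhesions that is also found in the nucleus, was removed by treating cultured cells with 4-hydroxytamoxifen. The 8 libraries came from 4 lines, with 2 replicates per line. FAK-/- cells carry no re-expressed FAK, FAK-WT cells re-express wild-type FAK by retroviral transduction, FAK-nls cells carry FAK with impaired nuclear localization (R177A, R178A, R190A, R191A, R216A and R218A), and FAK-kd cells carry kinase-deficient FAK (K454R). Per the study, wild-type and mutant FAK were expressed in a FAK-/- clone. All 4 lines thus share the deletion, and each stands for 1 derivation rather than for independent tumours. The study calls the libraries of a line biological replicates. Neither it nor the labels say how the cultures were separated, and p-values measure only the spread between these libraries.

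Collagens are the main structural proteins of the extracellular matrix. Fibrillar chains build the cable-like fibrils of dermis, tendon, bone and cartilage, type IV chains build the sheet-like network of basement membranes, and smaller families decorate fibrils, anchor epithelium or span the plasma membrane. In skin, fibroblasts make most of the fibrillar collagen, whereas keratinocytes contribute chains of the dermal-epidermal junction such as Col7a1, the anchoring fibril chain, and Col17a1, a transmembrane component of hemidesmosomes.

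The libraries held between 24402 and 53728 called peaks. Both FAK-nls libraries were at the low end of this range, with 24402 and 24974 peaks, and covered 13.2 Mb each, against 33.7 Mb in FAK-WT replicate 1. The study gives read totals per library, but they were not used here, and the lists themselves hold none. A missing call is not a closed site. In a bulk library, fewer cells with an open site and a less open site in each cell cannot be told apart. The cell type label was compared with promoter calls at 8 keratinocyte markers, and none was called in all 8 libraries. Itgb4 was called in 3 libraries and Krt14 in 1, whereas Krt5, Trp63, Cdh1, Epcam, Dsp and Perp were called in 0. Among 7 fibroblast markers, Pdgfra and Twist2 were called in all 8 libraries and Prrx1 in 5, and Dcn, Lum, Thy1 and Fap were called in 0. Of 3 melanocyte markers, Pmel was called in all 8 libraries, and Mlana and Tyr in 0. Of 3 endothelial markers, Cdh5 was called in the 2 FAK-WT libraries, and Pecam1 and Tek in 0. Of 3 immune markers, Cd68 was called in the 2 FAK-/- libraries, and Ptprc and Lyz2 in 0. Over all protein-coding genes, 42.3% had a promoter called in no library and 40.3% in all 8. These short lists do not settle cell identity. In their windows, Cdh1 had 7 merged regions, Trp63 4 and Krt5 1, and Epcam, Dsp and Perp had 0. Dcn, Lum and Thy1 each had 1 region called in all 8 libraries, and Fap had 0 regions. Most of the keratinocyte markers thus had no called promoter, and the cells are named here by their line. All libraries came from cultured lines, and whether other cell types contribute to the collagen calls was not tested.

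Several collagen regions are shown first, to give the sequence behind the main patterns of calls. None of the differences between lines shown here remained when each list was limited to the same number of strongest peaks. Each line gives bases of mm10 on the strand of its gene, 5′ to 3′, around the AP-1 motif nearest to the middle of the region, or around the middle where stated, and capitals mark AP-1 motifs (TGACTCA or its complement TGAGTCA). AP-1 is the Jun and Fos family of transcription factors that the study asks about. The first is chr9:108953191-108953291, on the plus strand upstream of Col7a1, in a region that each FAK-WT replicate and neither FAK-nls replicate called.
Col7a1: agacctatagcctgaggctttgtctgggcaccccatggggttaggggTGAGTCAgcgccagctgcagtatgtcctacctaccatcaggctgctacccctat
The following 5 introns were called by the FAK-WT pair of libraries and by no other library. They are chr2:180994517-180994617 in Col20a1 on the plus strand, chr9:105764874-105764974 in Col6a6 on the minus strand, chr2:180611138-180611238 in Col9a3 on the plus strand, and, around the middle and without an AP-1 motif, chr8:11430822-11430922 in Col4a2 on the plus strand and chr15:71927775-71927875 in Col22a1 on the minus strand.
Col20a1: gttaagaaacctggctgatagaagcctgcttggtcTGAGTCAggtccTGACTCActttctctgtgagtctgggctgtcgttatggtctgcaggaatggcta
Col6a6: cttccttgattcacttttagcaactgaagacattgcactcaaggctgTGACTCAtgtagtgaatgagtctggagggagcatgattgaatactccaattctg
Col9a3: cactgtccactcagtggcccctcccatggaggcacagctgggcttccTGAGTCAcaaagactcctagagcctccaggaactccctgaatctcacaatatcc
Col4a2: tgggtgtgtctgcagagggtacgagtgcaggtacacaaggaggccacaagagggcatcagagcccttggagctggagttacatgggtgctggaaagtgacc
Col22a1: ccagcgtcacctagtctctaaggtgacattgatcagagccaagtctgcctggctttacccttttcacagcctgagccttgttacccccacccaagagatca
The opposite pattern, a call in both FAK-/- libraries alone, was seen at chr16:57715195-57715295 on the minus strand, in an intron of Col8a1.
Col8a1: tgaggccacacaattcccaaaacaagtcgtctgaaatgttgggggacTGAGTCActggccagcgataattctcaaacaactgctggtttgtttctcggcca
The FAK-nls pair alone called an intron of Col24a1, shown around its middle at chr3:145386465-145386565 on the plus strand, without an AP-1 motif.
Col24a1: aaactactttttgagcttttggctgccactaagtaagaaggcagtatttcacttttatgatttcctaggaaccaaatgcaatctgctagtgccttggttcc
A pair of introns called in all 8 libraries is given for comparison, namely chr4:130050574-130050674 in Col16a1 and chr3:145420690-145420790 in Col24a1, both on the plus strand.
Col16a1: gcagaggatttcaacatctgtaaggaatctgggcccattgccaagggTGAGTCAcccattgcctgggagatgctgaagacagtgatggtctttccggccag
Col24a1: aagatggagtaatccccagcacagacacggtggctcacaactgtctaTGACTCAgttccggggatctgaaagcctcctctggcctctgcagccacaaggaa
The last sequence is from RefSeq on GRCm38 and holds the 250 bases before the Col23a1 start, chr11:51289670-51289919 on the plus strand, since this promoter was called in FAK-/- and not in FAK-WT. It holds 18 CpG dinucleotides and no AP-1 motif, so it has no capitals.
Col23a1: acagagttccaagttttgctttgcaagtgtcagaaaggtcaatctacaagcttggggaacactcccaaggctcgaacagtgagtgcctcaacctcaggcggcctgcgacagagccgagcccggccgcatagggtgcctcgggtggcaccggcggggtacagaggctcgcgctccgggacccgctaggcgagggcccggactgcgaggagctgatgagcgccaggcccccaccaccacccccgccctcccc

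The first question was which collagen promoters were accessible in these cells. A promoter was counted as called when a peak overlapped the interval from 500 bp before to 2000 bp after the start of any protein-coding transcript of the gene. In all 8 libraries, 9 of 44 collagen promoters (20.5%) were called, against 40.3% of 21853 protein-coding genes. A further 19 (43.2%) were called in some libraries and not in others, against 17.4% of all genes, and 16 (36.4%) were called in no library, against 42.3%. Collagen promoters were thus more often variable between libraries, and less often called throughout, than the promoters of all genes, and this difference was not tested. The 9 promoters were those of Col1a1 and Col1a2, the type I chains, Col5a1 and Col5a2, the type V chains, Col4a1 and Col4a2, the ubiquitous type IV chains, Col15a1, a basement-membrane zone chain, Col6a2, a chain of beaded filaments, and Col16a1, a fibril-associated (FACIT) chain. When each list was limited to its 24383 strongest peaks by −log10 p, 4 promoters (9.09%) were called throughout, against 31.2% of all genes.

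**Figure D1:**
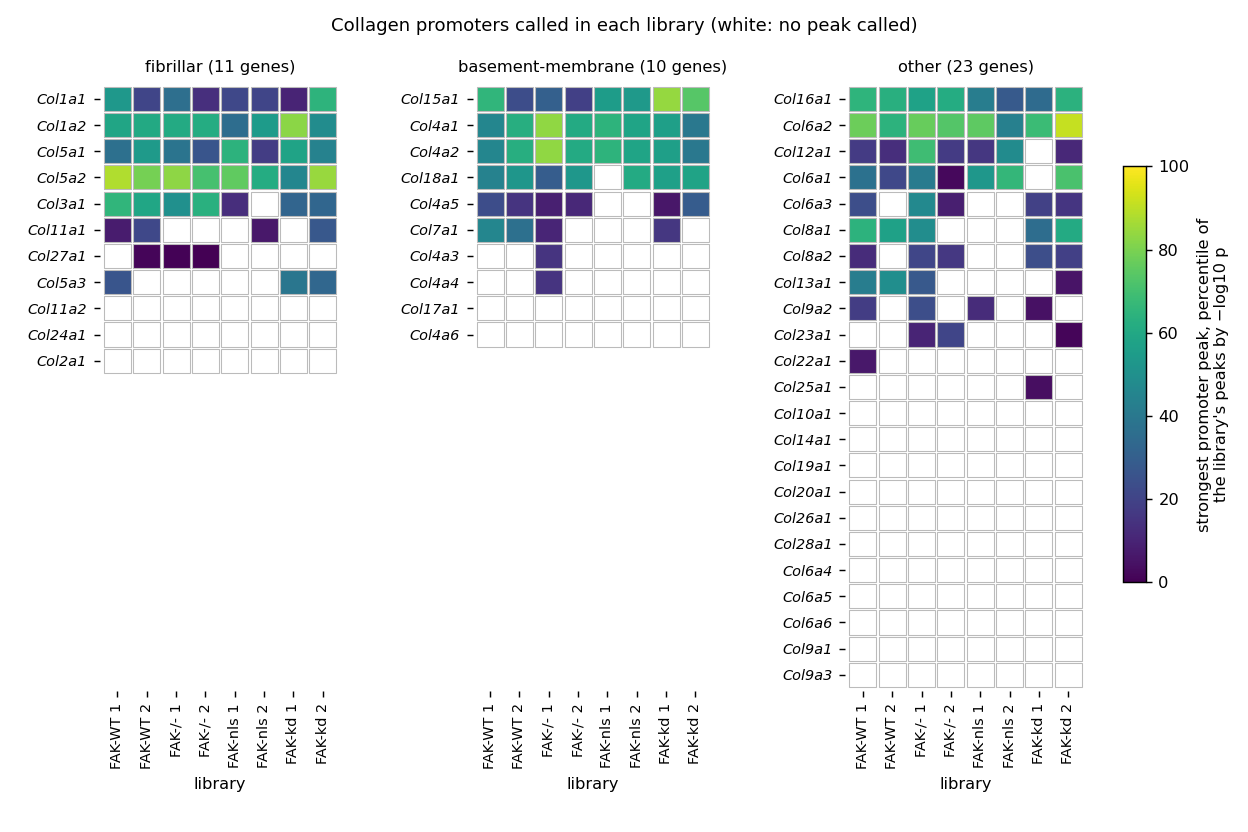
Promoter calls of the 44 collagen genes (rows) in the 8 libraries (columns), by chain class. Colour gives the percentile of the strongest promoter peak among the peaks of its library by −log10 p, and white means no call. Filled rows are at the top of each panel, with 4 fibrillar, 3 basement-membrane and 2 other chains filled throughout.

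By class, the promoter was called in all 8 libraries for 4 of 11 fibrillar chains (36.4%), 3 of 10 basement-membrane chains (30.0%) and 2 of 23 other chains (8.70%). This order depended on the calls, with 2 fibrillar, 0 basement-membrane and 2 other chains at equal numbers of strongest peaks and 1, 2 and 1 at a minimum −log10 q of 3. In the full lists the promoter was called in no library for 3 fibrillar, 2 basement-membrane and 11 other chains. The ratio of observed to expected CpG had a median of 0.428 at collagen starts and 0.524 over all genes. The class medians did not follow the calls, at 0.358 for fibrillar, 0.536 for basement-membrane and 0.408 for other chains. Of the 11 collagen genes with a ratio of at least 0.6, 4 (36.4%) had a promoter called throughout, against 68.3% of all such genes. Among the 33 with a lower ratio, 5 (15.2%) were called throughout, against 18%. The gap to all genes was therefore larger among CpG-rich starts, without a test.

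Among fibrillar chains, the Col1a1 promoter region (chr11:94936640-94937490) had a fold enrichment over local background of 4.52 and 3.22 in FAK-WT, 3.43 and 3.05 in FAK-/-, 3.57 and 3.68 in FAK-nls, and 3.01 and 4.82 in FAK-kd. Both FAK-nls values lay above both FAK-/- values, and every other pair of lines overlapped. This promoter was called in 3 libraries with a minimum −log10 q of 3, in 3 at equal numbers of strongest peaks, and in 1 with an interval of 500 bp either side of the start. The Col5a2 promoter had the highest fold enrichment of the fibrillar promoters in 7 of 8 libraries, the exception being FAK-kd replicate 1, where Col1a2 was higher. It stood at 6.45 and 5.61 in FAK-WT, 5.90 and 5.17 in FAK-/-, 5.19 and 4.95 in FAK-nls, and 4.44 and 6.54 in FAK-kd. For Col1a2 the called region was centred 2628 bp after the annotated start and counted through another transcript start, and its fold enrichment ran from 3.99 to 5.75. It was called in 7 libraries at the stricter q, in 8 at equal numbers and in 0 with 500 bp either side of the start. Col3a1, the type III chain, was called in 7 libraries and missing in FAK-nls replicate 2. Its values were 4.61 and 4.48 in FAK-WT and 4.13 and 4.58 in FAK-/-, and 3.49 in the called FAK-nls library, with 3.57 and 3.35 in FAK-kd. All 4 FAK-WT and FAK-/- values lay above the 3 others. Col27a1 was called in FAK-WT replicate 2 and both FAK-/- libraries, with fold enrichments from 2.77 to 2.92, all weak. Col5a3, the remaining type V chain, was called in FAK-WT replicate 1 and both FAK-kd libraries. The cartilage chain Col11a1 was called in each FAK-WT replicate, FAK-nls replicate 2 and FAK-kd replicate 2. The promoters of Col2a1, the main cartilage chain, Col11a2 and Col24a1 were called in no library.

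Among basement-membrane chains, 3 gene pairs are arranged head to head. The starts of Col4a1 and Col4a2 lie 21 bp apart, and their shared promoter region (chr8:11312039-11313342) was called in all 8 libraries. Its fold enrichment was 3.51 and 3.99 in FAK-WT, 4.73 and 3.63 in FAK-/-, 4.39 and 4.61 in FAK-nls, and 3.77 and 3.55 in FAK-kd. Both FAK-nls values exceeded both FAK-WT values, whereas the other two lines overlapped with FAK-WT. Col4a3 and Col4a4, which form the network of kidney and lung with Col4a5, start 72 bp apart, and their promoter was called only in FAK-/- replicate 1, at 3.49. Col4a5 and Col4a6 start 1309 bp apart. A region across the Col4a5 start (chrX:141475214-141476748), centred 596 bp after it, was called at 3.90 and 3.54 in FAK-WT, in both FAK-/- libraries (3.29 and 3.43), neither FAK-nls library and both FAK-kd libraries (3.28 and 3.78). It overlapped the promoter interval of Col4a5 and not that of Col4a6, which was called in no library.

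Among chains of the dermal-epidermal junction, the promoters of Col7a1 and Col17a1 were called in fewer libraries than those of Col4a1 and Col4a2. The Col7a1 promoter region (chr9:108952698-108953524), whose AP-1 motif is printed above, had fold enrichments of 4.31 and 3.59 in FAK-WT, 2.81 in FAK-/- replicate 1 and 3.11 in FAK-kd replicate 1, and was not called in FAK-/- replicate 2, FAK-kd replicate 2 or either FAK-nls library. An exonic region of Col7a1 (chr9:108977801-108978523) was called in all 8 libraries, from 3.73 to 5.79. The Col17a1 promoter was called in no library. Col17a1 had 3 regions, of which an upstream one (chr19:47699650-47700160) was called in 7 libraries at 3.99 to 6.62 and missing only in FAK-nls replicate 2, and an exonic one (chr19:47658825-47659955) was called in 6. Col18a1, the source of endostatin, had a promoter called in 7 libraries and missing in FAK-nls replicate 1. Col15a1 was called throughout only at a transcript start inside the gene, in a region centred 95542 bp after its annotated start. The Col15a1 promoter was called in 5 libraries with a minimum −log10 q of 3 and in 5 at equal numbers of strongest peaks. With an interval of 500 bp either side of the start it was called in 1.

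The other chains had few constant promoters. Col6a2 had fold enrichments of 6.08 and 4.71 in FAK-WT, 5.20 and 4.39 in FAK-/-, 4.94 and 4.24 in FAK-nls, and 4.66 and 7.72 in FAK-kd, so that the lines overlapped. Col6a1, its partner in beaded filaments, and the FACIT chain Col12a1 were called in 7 libraries and missing in FAK-kd replicate 1, and without that library the count of other chains called throughout was 4 in place of 2. Col6a3 and the short-chain Col8a2 were called in 5 libraries each, both missing in FAK-WT replicate 2 and in FAK-nls. Col8a1, which forms hexagonal networks, was called in 5 by the promoter interval, although a region across its start (chr16:57754553-57756036) was called in all 8, from 3.36 to 4.47. Col13a1, Col23a1 and Col25a1, which span the plasma membrane, were called in 4, 3 and 1 libraries. Col9a2 was called in replicate 1 of every line and in no replicate 2. Col22a1 was called in FAK-WT replicate 1 alone. The uncalled promoters were those of Col9a1, Col9a3, Col14a1, Col19a1 and Col20a1 among FACIT chains, Col6a4, Col6a5 and Col6a6, Col10a1, Col26a1 and Col28a1. Col10a1, a marker of hypertrophic cartilage, was the only collagen gene with no region at all.

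Most collagen regions lay away from promoters. Of 238 regions, 154 were intronic, 39 overlapped an exon, 30 lay in a collagen promoter, 13 lay upstream and 2 in the promoter of a neighbouring gene. In all 8 libraries, 38 regions (16.0%) were called, against 25.8% of all merged regions, and in a single library 76 (31.9%), against 28.6%. The 2 sets differ in their share of promoters. Outside promoters, 27 of 206 collagen regions were called in all 8 libraries, beside 9737 of 56288 of all merged regions. Within classes, 12 of 49 regions of fibrillar windows (24.5%), 12 of 73 of basement-membrane windows (16.4%) and 14 of 116 of other windows (12.1%) were called throughout. The median number of regions per 100 kb was 5.45 for fibrillar, 6.32 for basement-membrane and 4.03 for other chains, against 4.53 over all genes. With the gene body alone the fibrillar median was the higher, at 5.88 against 5.38 for basement-membrane and 4.66 for other chains, and at equal numbers of strongest peaks the medians were 2.97, 2.95 and 2.39. The 6 type IV chains alone had a median of 2.95, because Col4a1 and Col4a2 had 9.65 and 12.3 regions per 100 kb while the remaining type IV genes had between 1.35 and 3.14. Collagen windows were long, with a median of 124 kb against 27.4 kb over all genes.

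The genes with the most regions called throughout were Col4a2 with 6 of 18, Col24a1 with 4 of 9, and Col15a1 with 3 of 9, Col16a1 with 3 of 7 and Col22a1 with 3 of 13. Beside the shared promoter, the constant regions of Col4a2 were 5 introns, centred 10537 bp after its start and at 69648, 80485, 87610 and 99214 bp. Its window held 16 and 14 called regions in FAK-WT, 14 and 13 in FAK-/-, 7 and 8 in FAK-nls, and 14 and 15 in FAK-kd. The FAK-nls libraries were the lowest and did not overlap with the other lines, and over all merged regions they were also the lowest, with 34.9% and 35.7% called against 47.1% to 77.0%. At equal numbers of strongest peaks the Col4a2 window held 8 and 9 regions in FAK-WT, 10 and 12 in FAK-/-, 7 and 8 in FAK-nls, and 11 and 8 in FAK-kd, so that FAK-nls overlapped with FAK-WT and FAK-kd. Col24a1, a fibrillar chain, had these regions without a called promoter, and its counts ran from 5 to 8 per library. Col22a1, a chain of the myotendinous junction whose promoter was called in 1 library, had 11 and 8 called regions in FAK-WT, 9 and 7 in FAK-/-, 3 and 5 in FAK-nls, and 6 and 8 in FAK-kd.

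**Figure D2:**
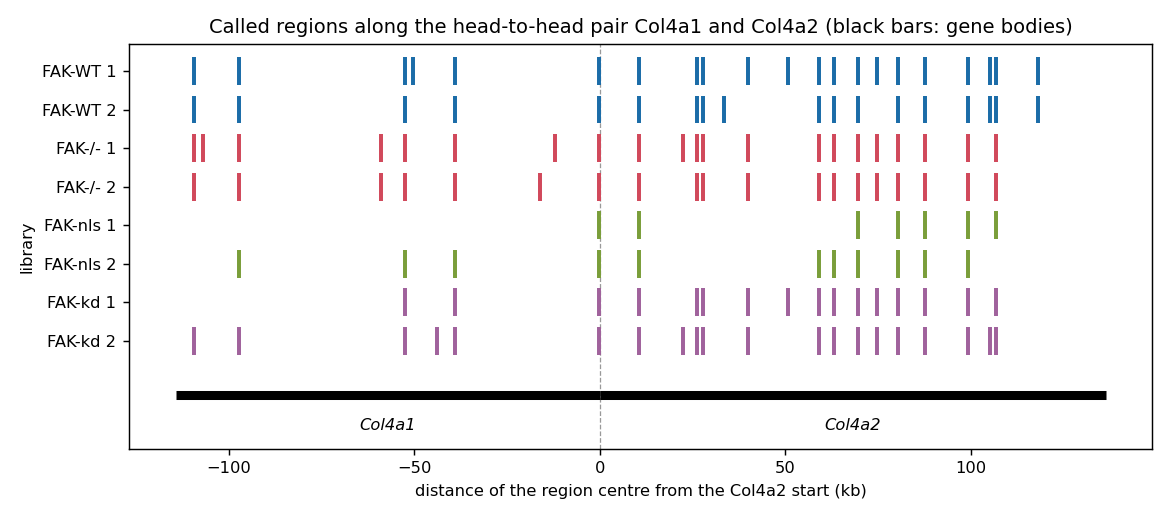
Regions called along Col4a1 and Col4a2 in each of the 8 libraries, by the distance of the region centre from the Col4a2 start in kb, with black bars for the gene bodies. The shared promoter at 0 is marked in every library, and the FAK-nls rows hold the fewest marks.

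The number of collagen regions called in a library followed its number of peaks. FAK-WT had 174 and 117 called regions, FAK-/- had 143 and 108, FAK-nls had 55 and 69, and FAK-kd had 106 and 148. The FAK-nls libraries lay below the others, and the other 3 lines overlapped. As a share of the regions called in each library, collagen regions made up between 0.302% and 0.334% in the 6 libraries of the other lines and 0.227% and 0.279% in FAK-nls. By class, regions of other chains were called less often than all merged regions in each of the 8 libraries, and were the lowest class in 7, the exception being FAK-WT replicate 1. They stood at 72.4% and 44.8% in FAK-WT, where 77.0% and 55.9% of all merged regions were called, at 54.3% and 38.8% in FAK-/- (61.7% and 50.4%), at 16.4% and 24.1% in FAK-nls (34.9% and 35.7%), and at 37.9% and 56.9% in FAK-kd (47.1% and 65.8%). Among equal numbers of strongest peaks, the collagen regions numbered 63 and 68 in FAK-WT, 67 and 68 in FAK-/-, 55 and 67 in FAK-nls, and 72 and 72 in FAK-kd, so that FAK-nls replicate 1 alone lay apart. The called promoters were 7 and 11 in FAK-WT, 10 and 8 in FAK-/-, 13 and 13 in FAK-nls, and 12 and 9 in FAK-kd. FAK-nls, which had the fewest called collagen promoters in the full lists (13 and 13, against 18 to 24), had the most among the strongest peaks. Over all protein-coding genes FAK-nls was also lowest in the full lists, at 44.2% and 44.2% against 49% to 53.1%, and highest at equal numbers, at 44.2% and 43.7% against 38.8% to 42.9%.

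**Figure D3:**
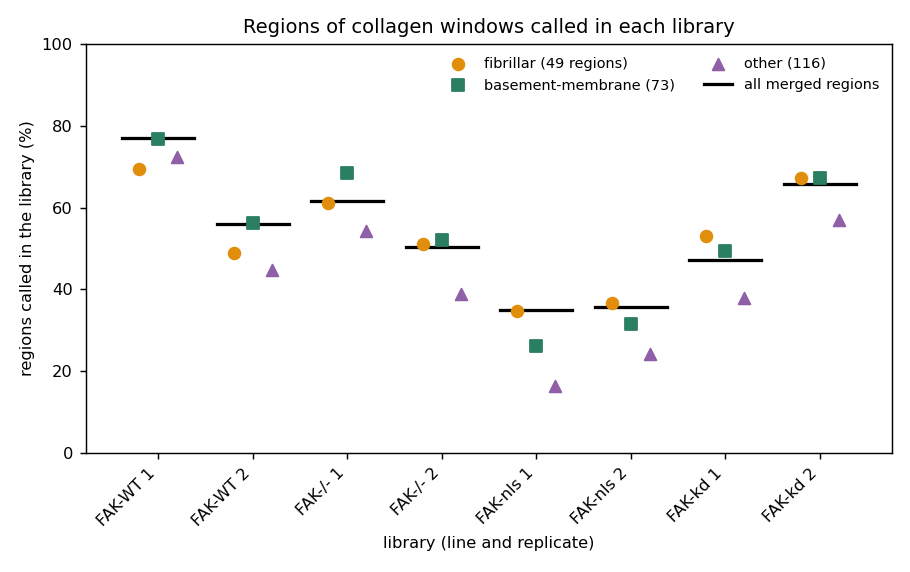
Share of the merged regions in fibrillar, basement-membrane and other collagen windows that was called in each library, in percent, with the share of all merged regions as a black line. The other chains lie below the black line in every library and are the lowest class in 7 of 8.

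The comparison of lines asked which collagen regions had a call in each FAK-WT replicate but in no replicate of another line (WT-only), or the opposite (reverse). Since peak numbers differ, these sets were read beside the same sets over all regions. With 2 libraries against 2, an exact permutation test cannot give a p-value under 0.05, so none is given for a single region.

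Against FAK-/-, 13 collagen regions (5.46%) were WT-only, where 4.89% of all merged regions were, and 4 (1.68%) were reverse, where 1.18% were. Both shares were near the background. The best-ranked WT-only regions were the Col20a1 intron printed above (fold enrichment 5.00 and 3.29), a Col22a1 intron (chr15:71917668-71918067, 4.16 and 3.39) and an exonic region of Col6a4 (chr9:106043923-106044490, 4.10 and 4.50). An upstream region of Col1a1 (chr11:94928121-94929292) was also in the set. It had 3.64 and 4.32 in FAK-WT, 3.47 in FAK-nls replicate 1, and 4.22 and 4.51 in FAK-kd, and no call in FAK-/-. Reverse regions lay in introns of Col5a2 (chr1:45419708-45420162, 5.62 and 3.61), Col4a1 (chr8:11253608-11253856, 3.77 and 3.86) and Col8a1 (chr16:57715066-57715533, 3.56 and 4.63) and at the Col23a1 promoter (3.07 and 3.35). At promoters, Col11a1 alone was WT-only (2.27% of collagen promoters, against 0.769% of all) and Col23a1 alone was reverse (2.27%, against 0.416%). Leaving out FAK-WT replicate 2 raised the WT-only count from 13 to 50, leaving out FAK-WT replicate 1 gave 21, and leaving out FAK-/- replicate 1 gave 25. The share of all regions rose alike, to 20.4%, 7.92% and 10.3%, beside collagen shares of 21%, 8.82% and 10.5%. The reverse count became 16 without FAK-WT replicate 1, 8 without FAK-/- replicate 1 and 22 without FAK-/- replicate 2, or 6.72%, 3.36% and 9.24%, beside 4.68%, 3.56% and 6.96% of all regions.

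Against FAK-nls, 36 collagen regions (15.1%) were WT-only, where 15.3% of all merged regions were, and 1 (0.420%) was reverse, where 0.248% were. The collagen share was again near the background. With a minimum −log10 q of 3 it was 37 of 145 (25.5%), where 19.7% of all regions were WT-only. The 36 regions lay in windows of 22 genes, with 4 each in Col4a2 and Col18a1. The best-ranked were introns of Col22a1 (chr15:71843636-71844118), Col6a5 (chr9:105887375-105887913) and Col4a2 (chr8:11340268-11340918), each called in all 6 libraries of the other lines. The Col22a1 intron had 7.15 and 7.22 in FAK-WT, 6.59 and 6.71 in FAK-/-, and 5.20 and 4.93 in FAK-kd. By the promoter interval, Col7a1, Col8a1, Col13a1 and Col4a5 were WT-only (9.09%, against 3.56% of all) and none was reverse (0.0869% of all). The region across the Col8a1 start was nevertheless called in both FAK-nls libraries, outside that interval, at 4.47 and 3.85. At equal numbers of strongest peaks the Col7a1 and Col4a5 promoters were called in 0 libraries and that of Col13a1 in 1, whereas that of Col8a1 was still called in each FAK-WT replicate and in neither FAK-nls replicate. The single reverse region was an intron of Col24a1 (chr3:145386098-145386932), at 3.51 and 3.26 in FAK-nls and uncalled elsewhere. The WT-only count was 98 (41.2%, against 37.6% of all regions) without FAK-WT replicate 2 and 57 (23.9%, against 20.3%) without FAK-nls replicate 2. The reverse count was 2 without FAK-WT replicate 1, 3 without FAK-nls replicate 1 and 2 without FAK-nls replicate 2, beside 0.899%, 1.24% and 1.47% of all regions.

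Against FAK-kd, 7 collagen regions (2.94%) were WT-only, where 4.33% of all merged regions were, and 0 were reverse, where 0.830% were. The WT-only regions lay in Col9a3, Col20a1, Col4a2, Col6a6, Col22a1, Col2a1 and Col4a6. The best-ranked after the Col20a1 intron were introns of Col4a2 (chr8:11430710-11431034, 4.15 and 3.40) and Col4a6 (chrX:141441163-141441551, 3.77 and 4.14). No collagen promoter was in either set, where 0.636% and 0.348% of all promoters were. The WT-only count was 14 (5.88%) without FAK-WT replicate 1, 45 (18.9%) without FAK-WT replicate 2 and 24 (10.1%) without FAK-kd replicate 2, where 7.38%, 18.1% and 11.8% of all regions were. The reverse count was 13 without FAK-WT replicate 1, 23 without FAK-kd replicate 1 and 6 without FAK-kd replicate 2, or 5.46%, 9.66% and 2.52%, beside 3.70%, 8.09% and 2.85% of all regions.

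Counted across all lines, 5 collagen regions (2.1%) were called by the FAK-WT pair alone, against 1.99% of all merged regions. They lay in introns of Col9a3, Col20a1, Col4a2, Col6a6 and Col22a1. For FAK-/- alone there were 3 (1.26%), against 0.473%, for FAK-nls alone 1 (0.420%), against 0.0562%, and for FAK-kd alone 0, against 0.317%. In the opposite direction, 11 regions (4.62%) were called in the 6 other libraries and missing in both FAK-nls libraries, against 4.12% of all regions, and no collagen region was missing in FAK-WT alone (0.0476% of all regions were), FAK-/- alone (0.104%) or FAK-kd alone (0.0605%).

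Among equal numbers of strongest peaks, 124 collagen regions remained, and the asymmetry between WT-only and reverse sets was not seen in these counts. Against FAK-/-, 2 were WT-only (1.61%, against 3.44% of all regions) and 4 reverse (3.23%, against 3.31%). Against FAK-nls, 6 were WT-only (4.84%, against 4.91%) and 5 reverse (4.03%, against 4.23%), and against FAK-kd, 4 were WT-only (3.23%, against 3.10%) and 5 reverse (4.03%, against 2.64%). Of the 13 WT-only regions against FAK-/- in the full lists, 0 remained in the set, and 7 had no call in any library. Of the 36 against FAK-nls, 5 remained, and of the 7 against FAK-kd, 0 remained. The 2 WT-only regions against FAK-/- at equal number both lay in Col24a1, and the reverse ones in Col15a1, Col4a2, Col12a1 and Col2a1.

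**Figure D4:**
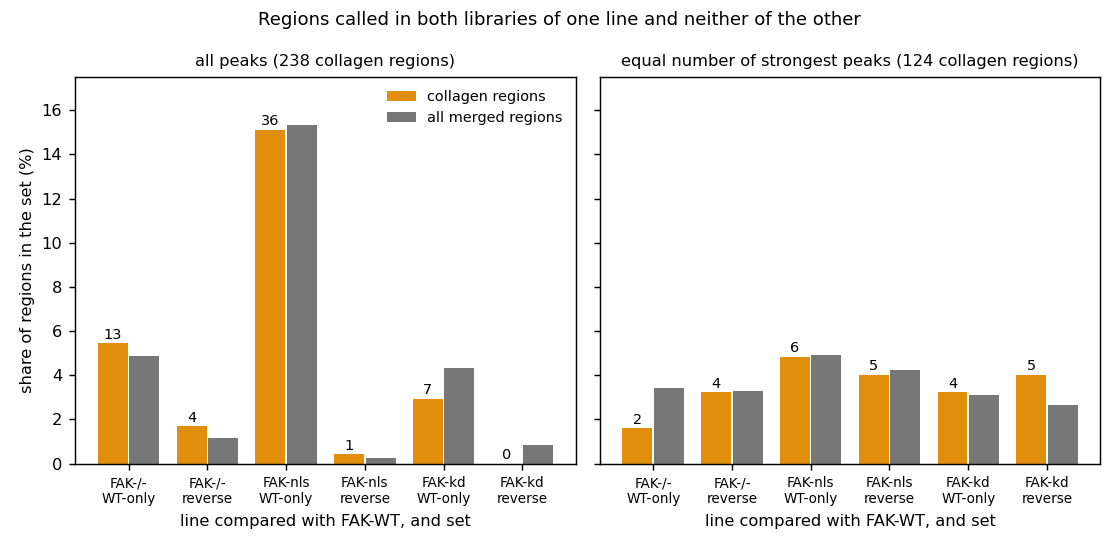
Share of collagen regions (orange, with counts) and of all merged regions (grey) in the WT-only and reverse sets, in percent, for each line compared with FAK-WT. The left panel uses all peaks, with 36 WT-only regions against FAK-nls. The right panel uses the same number of strongest peaks in every library, where all counts lie between 2 and 6.

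Peak strength was compared at the 38 collagen regions called in all 8 libraries, within one limma fit over 17917 such regions on the log2 scale of quantile-normalized fold enrichment. No collagen region passed an adjusted p-value of 0.05 for FAK-WT against FAK-/- (0.00558% of all regions did), FAK-nls (0% did) or FAK-kd (0.0112% did), or in the test over the 4 lines (0.0112% did). At an unadjusted p under 0.05 there were 1, 6, 2 and 6 collagen regions in these tests. These are 2.63%, 15.8%, 5.26% and 15.8% of the 38, against 6.31%, 15.4%, 5.37% and 13.4% of all regions. In a simulation of the FAK-/- comparison on 17917 regions, the fit recovered 92% of changes of 1 log2 unit and 17% of changes of 0.5 log2 units, so most differences of the latter size would be missed. The median difference over the 38 regions was 0.03 for FAK-/- and 0.00 for FAK-nls and FAK-kd, beside −0.01 over all regions in each comparison.

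The region with the lowest p-values was the Col24a1 intron printed above (chr3:145420397-145421090). Its normalized log2 fold enrichment was 2.95 and 3.05 in FAK-WT, 2.49 and 2.54 in FAK-/-, 2.17 and 2.36 in FAK-nls, and 2.31 and 2.72 in FAK-kd. Both FAK-WT values lay above all 6 others. The differences were 0.49 ± 0.15 (SE) for FAK-/- (limma adjusted p = 0.629), 0.73 ± 0.15 for FAK-nls (adjusted p = 0.0763) and 0.48 ± 0.15 for FAK-kd (adjusted p = 0.729). With the mean pileup in place of fold enrichment, the region passed against all 3 lines, with differences of 1.09 (adjusted p = 0.0228), 0.98 (0.0216) and 1.04 (0.0425), where 0.513%, 1.79% and 0.229% of all regions passed. In the test over the 4 lines with pileup, 4 collagen regions passed, where 5.41% of all regions did. Another Col24a1 intron (chr3:145363534-145364148) went the other way. It had 1.67 and 2.07 in FAK-WT, 1.87 and 2.03 in FAK-/-, 2.40 and 2.59 in FAK-nls, and 2.03 and 2.09 in FAK-kd. The difference to FAK-nls was −0.62 ± 0.16 (limma adjusted p = 0.112), and with pileup it passed at −1.36. The exonic region of Col7a1 differed by 0.22 ± 0.16 between FAK-WT and FAK-nls (limma adjusted p = 0.539) and passed with pileup at 0.86 (adjusted p = 0.0175).

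**Figure D5:**
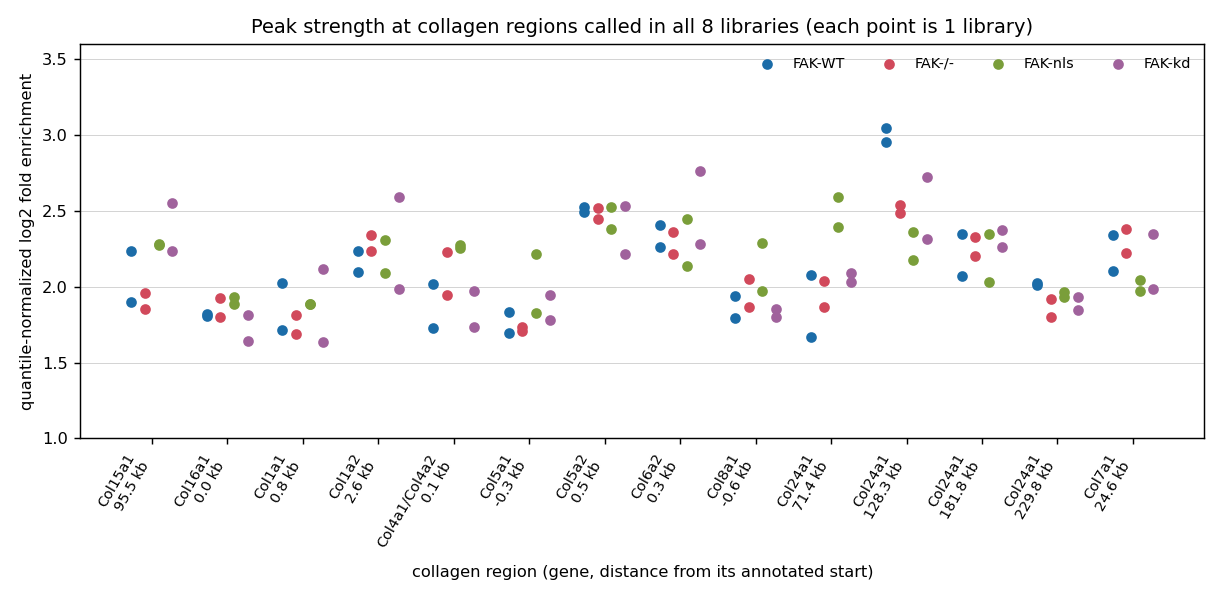
Quantile-normalized log2 fold enrichment of each library (points, coloured by line) at 14 collagen regions called in all 8 libraries, namely those in collagen promoters and those of Col24a1 and Col7a1, labelled by gene and distance from the annotated start in kb. Both FAK-WT points lie above the other 6 at the Col24a1 region 128271 bp from the start (2.95 and 3.05) and at that 229791 bp from it (2.01 and 2.03).

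At the 9 constant regions in collagen promoters, differences between FAK-WT and another line ran from −0.39 to 0.16. For Col1a1 the differences between FAK-WT and the other lines were 0.12 ± 0.15 (FAK-/-), −0.02 ± 0.15 (FAK-nls) and −0.01 ± 0.15 (FAK-kd), none past the limma threshold. The shared promoter of Col4a1 and Col4a2 differed by −0.39 ± 0.15 between FAK-WT and FAK-nls, which were at 1.73 and 2.02 and at 2.26 and 2.28 (limma adjusted p = 0.236). The Col15a1 promoter differed by −0.33 ± 0.16 between FAK-WT and FAK-kd, which were at 2.23 and 1.90 and at 2.55 and 2.24 (limma adjusted p = 0.934). These 2 promoters were among the 6 collagen regions with an unadjusted p under 0.05 in the limma test over the 4 lines, with adjusted p-values of 0.361 and 0.319.

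The collagen regions were then examined for transcription factor motifs, counted as exact matches on either strand in the central 500 bp. AP-1 (TGACTCA) was found in 105 of 238 collagen regions (44.1%, 95% Wilson interval 38% to 50.5%) and in 35.3% of all merged regions. Since fewer promoters than other regions hold AP-1 motifs, the shares outside promoters were also read, at 47.6% (40.9% to 54.4%) and 41.1%. Among the 38 collagen regions called throughout, 20 (52.6%, 37.3% to 67.5%) held the motif, against 33.3% of all such regions. Outside promoters these were 19 of 27 (70.4%, 51.5% to 84.1%), against 55.3%. These intervals cover the counting of regions only. They treat regions as independent, although many share a gene (18 in Col4a2 and 13 in Col22a1), and may be too narrow. ETS motifs (CGGAAGT or AGGAAGT) were found in 14.7% of collagen regions and 17.0% of all regions. Among regions called throughout they were in 1 of 38 collagen regions (2.63%, 0.466% to 13.5%), against 19.6% of all, and outside promoters in 0 of 27, against 17.3%. Over all calls, TEAD motifs (ACATTCC) were found in 12.2% and 9.0%, and CRE motifs (TGACGTCA, which does not contain the AP-1 letters) in 1.68% and 1.07%. Of the 5 regions called in FAK-WT alone, those of Col9a3, Col20a1 and Col6a6 held AP-1 motifs, with 2 in Col20a1, and those of Col4a2 and Col22a1 held none. In the 38 RefSeq promoter sequences of 35 collagen genes (250 bases before to 50 after the start), 1 held an AP-1 motif (2.63%, against 5.20% of all RefSeq promoters), that of Col6a1.

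Collagen assembly depends on a set of enzymes, chaperones and receptors, and the promoters of 42 such genes were read in the same way. In all 8 libraries 22 were called (52.4%, against 40.3% of all genes), in some libraries 9 (21.4%, against 17.4%) and in none 11 (26.2%, against 42.3%). Among 17 hydroxylases, chaperones and folding factors, 11 were called throughout, including Serpinh1, the collagen chaperone, while P3h2, P4ha3 and Colgalt2 were called in none. All 4 secretion genes were called throughout. Of 8 propeptide-processing genes, 2 were called throughout and 4 in no library. Of the 5 cross-linking oxidases, Loxl1 and Loxl3 were called in all 8 libraries, Loxl4 in 5, and Lox and Loxl2 in 0. Of 8 receptor and uptake genes, 3 were called throughout, among them the collagen-binding kinases Ddr1 and Ddr2, and 2 in no library. Of the 4 collagen-binding integrin chains, Itga1 was called in 7 libraries and missing in FAK-nls replicate 1, Itga2 was called in both FAK-/- and both FAK-nls libraries and FAK-kd replicate 2, without a call in FAK-WT, Itga10 was called in both FAK-WT and both FAK-/- libraries and FAK-kd replicate 2, without a call in FAK-nls, and Itga11 was called in 0.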

How the data were processed

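ATAC-seq peak lists of 8 libraries were grouped by line from the labels. Per the labels, the authors used mm10 and MACS2 2.1.1, and their methods state the bcbio pipeline and broad peaks. One list per library was deposited. The deposited columns give the position and length of each peak, its pileup (coverage signal, not stated to be scaled), the −log10 of its p-value and q-value, and the fold enrichment, a ratio to local background. The lists were deposited with q-values up to about 0.1 (the lowest −log10 q was 1.00), and between 0.784% and 3.83% of peaks exceeded the stated 0.05. Peak numbers differ between libraries and carry over into every comparison of calls, so calls were repeated on equal numbers. Read totals, which the study gives, were not used here.

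Peaks on the autosomes and sex chromosomes were merged when sharing at least 1 bp (pandas 2.3.3, GENCODE M21). limma 3.58.1 in R 4.3.3, with Benjamini-Hochberg adjustment over all regions, was run on quantile-normalized log2 fold enrichment (length-weighted means) and tested on simulated data. The members, lists and tests were chosen with earlier results of these data known. Named were Col1a1, Col4a1, Col7a1 and Col17a1, neighbouring genes, the 5 genes with the most constant regions, promoters called in some libraries, regions past limma and the 3 best-ranked regions of each set. Other names were chosen after their values were seen. Alternatives were a minimum −log10 q of 3, equal numbers, 50% coverage, other windows, other signals and scalings, a replicate block and leaving out each library.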

Additional observations from a re-analysis of the deposited data

How the results depend on the processing

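Every count rests on calls, and peaks near the threshold limit it. Read totals were not used. With a minimum −log10 q of 3, the promoters called in all 8 libraries fell from 9 to 4 (fibrillar 1, other 1). This was 9.09%, against 24.5% of all genes. With equal numbers of strongest peaks they were 4 (fibrillar 2, basement-membrane 0), or 9.09% against 31.2%. When 50% of the promoter interval had to be covered, all of these counts were 0, against 0.439% of all genes. That follows from the length of the interval. With 500 bp either side of the start 6 were called throughout (13.6%, against 35.9%), and the fibrillar count was 2. Leaving out each library gave 9 to 11 promoters, with 4 to 5 fibrillar, 3 to 4 basement-membrane and 2 to 4 other. Median regions per 100 kb were 3.05, 3.53 and 2.24 (fibrillar, basement-membrane, other) at the minimum −log10 q of 3, 2.97, 2.95 and 2.39 at equal numbers, and 5.88, 5.38 and 4.66 with the gene body alone. Type IV chains alone had 2.95.

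Against FAK-/-, the WT-only count was 2 at equal numbers and 13 to 50 when each library was left out, and the reverse count 2 at the stricter q and 5 to 22. Against FAK-nls, WT-only was 6 at equal numbers (4.84%, against 4.91%). With a library left out it was 44 to 98 (18.5% to 41.2%, against 19.0% to 37.6%). Reverse was 0 at the stricter q (against 0.125%) and 5 at equal numbers (4.03%, against 4.23%). With a library left out it was 1 to 3 (0.420% to 1.26%, against 0.285% to 1.47%). Against FAK-kd, WT-only was 4 at equal numbers, 13 at 50% coverage and 10 to 45, and reverse 3, 5, 2 and 0 to 23. Leaving out a library loosens the rule itself. The cause of the other shifts was not tested.

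In limma, mean pileup gave 1, 3, 1 and 4 collagen regions (FAK-/-, FAK-nls, FAK-kd, 4 lines) and 92, 320, 41 and 970 of all regions. Summed pileup, which moves with the covered length (13.2 to 33.7 Mb a library), gave 0, 92, 0 and 50. Median centring gave 5 (FAK-/-) and 4 (4 lines), and the regions above the median strength 2 (FAK-/-). Leaving out each library gave 0 to 2, 0 to 2, 0 to 2 and 0 to 3 of all regions and 0 collagen regions throughout, the lone library being assumed to vary like the others. The cause was not tested. Deviations of same-numbered libraries correlated at −0.20 to 0.06 after normalization, which cannot tell whether these libraries were handled together. The fit with a replicate block called 0 regions over the 4 lines in place of 2, and 0 collagen regions. Each summary value was counted once for every alternative it was run under, and 139 of these kept their size or call while 81 moved. Single promoters were likewise counted once per alternative rather than once per gene. In 103 of these cases the number of libraries stayed within 1.5 times, and in 73 it did not.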
